A study of Homo sapiens with 9 samples.

Results

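Whole-transcriptome RNA levels were compared between the 3 cultures with replicate number 1 and the 6 cultures with replicate numbers 2 and 3, of 9 in all. Each number held 1 culture of each hairpin, so the hairpin was a block and every number had the same mix of hairpins. The labels give the number (n1, n2 or n3) and tie it to no day, passage, batch or round of culture, so it is called here by its number alone. Per the series' design text they are biological replicates.

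All cultures were MCF10A, a human breast epithelial line that is immortal but not tumorigenic and has basal features. All carried the plasmids pBABE-hygro-MYC and pMN-IRES-GFP-PI3KH1047R, for ectopic MYC and for PI3K with the H1047R change, and a doxycycline-switched hairpin in pLKO-tetON-puro. The hairpin was shG9a_1 or shG9a_4, both against EHMT2, which encodes G9a, an enzyme that methylates histone H3 at lysine 9, or the scrambled control shSCR. Doxycycline was given at 2 µg/mL for 72 hours to asynchronously growing cells, in a medium with 5% horse serum, cholera toxin, EGF, hydrocortisone and insulin. The labels do not say whether the line was a clone or a pool. The question put to the data is which genes set number 1 apart. Replicate number is a factor of the fit, so differences between numbers are taken out of the spread against which the hairpins are judged.

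Several signalling systems recur below. Retinoic acid, made in cells from retinol that serum can supply, binds nuclear RAR and RXR receptors, and cells respond by raising genes that store, take up or break down retinoids. NRF2 is a transcription factor that raises antioxidant and iron-handling enzymes, and the aryl hydrocarbon receptor (AHR) raises enzymes of the CYP1 family together with its own repressor. TGF-beta signals through SMAD proteins to genes of the extracellular matrix, and MHC class II proteins present peptides and are switched on by the coactivator CIITA.

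Levels are in CPM, the reads of a gene relative to all reads in tested genes with TMM scaling, and compare 1 gene across libraries, not genes with each other. Adjusted p-values are from edgeR's quasi-likelihood test with Benjamini-Hochberg adjustment over all genes tested, and where calls are followed over 23 alternative settings, these are other scalings, filters, tools and left-out libraries. The levels of a number are listed for shG9a_1, shG9a_4 and shSCR, in that order. EHMT2 was at 17.6, 32.1 and 51.1 CPM in number 1, against 22.6, 27.2 and 45.2 CPM in number 2 and 21.03, 33.5 and 45.4 CPM in number 3. It was lower in every knockdown library than in every shSCR library, as labelled, with −1.21 on the log2 scale for shG9a_1 over shSCR (SE 0.11, adjusted p = 0.00192) and −0.61 for shG9a_4 over shSCR (SE 0.11, adjusted p = 0.0907), which missed the threshold. The shG9a_4 difference passed it without shG9a_1 replicate 1 (adjusted p = 0.0121) or replicate 2 (adjusted p = 0.0324). Markers are given in CPM without TMM scaling. Basal markers were present, with KRT5 at 1849 to 3175 CPM and ITGA6 at 288.6 to 436.5 CPM over the 9 libraries. CDH5, CD3E and PTPRC, which define endothelial, T and blood cells, stayed at or under 0.07465 CPM. Against that, the fibroblast marker DCN reached 137 to 412 CPM while COL3A1 stayed at or under 0.346 CPM. The basal markers KRT14 and TP63 were at 19.86 to 84.62 CPM and at 2.334 to 7.204 CPM. Among luminal markers KRT8 was at 155.4 to 280.5 CPM, KRT18 at 233 to 297.4 CPM and EPCAM at 16.05 to 70.03 CPM, and KRT19 at or under 0.168 CPM. Reads in genes numbered 53065611 to 76958831 per library.

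Of 18435 genes tested, 97 were higher and 218 lower in number 1 than in the equally weighted mean of numbers 2 and 3, at an adjusted p under 0.05. These are 0.526% and 1.18% of the genes tested, or 1.71% together. The counts of list members called higher or lower below stand beside these shares. The changes were mostly moderate: 13 genes were at least 2-fold higher and 49 at least 2-fold lower, and the median log2 fold change over all genes was 0.00462. Number 1 lay above both other libraries in all 3 hairpins at 66 of the 97 higher genes and below both at 192 of the 218 lower genes. Over all genes tested the same held for 4.61% and 5.53%. The 3 number 1 libraries did not overlap with the 6 others at 41 higher and 136 lower genes, against 1.75% and 2.2% of all genes tested. The genes were called on these same libraries, so such counts describe the calls and test nothing. Of the 315 genes called, 292 were protein coding.

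**Figure D1:**
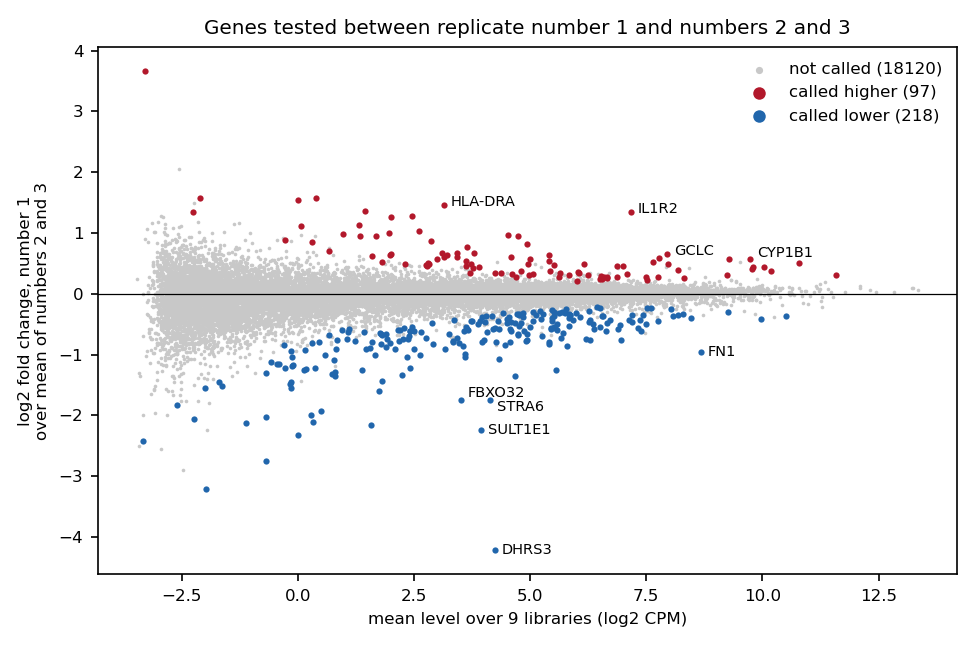
Each point is 1 of the 18435 genes tested, with its mean level over the 9 libraries (log2 CPM) on the x axis and its log2 fold change in number 1 over the mean of numbers 2 and 3 on the y axis. Red points are the 97 genes called higher and blue points the 218 called lower, and DHRS3 lies far below the rest at a log2 fold change of −4.22.

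The size of that count rested on single libraries and on which other number was used. It was 572 without shG9a_4 replicate 2, and 145 without shG9a_1 replicate 3 or without shG9a_4 replicate 1. It was 194 or 171 when the fit lacked replicate 1 or 3 of shSCR, 185 with replicate 1 of shG9a_1 left out and 154 with replicate 3 of shG9a_4 left out. In the same fit 298 genes differed between number 1 and number 2 (73 or 0.396% higher, 225 or 1.22% lower; 1.62% of genes tested) and 800 between number 1 and number 3 (306 or 1.66% higher, 494 or 2.68% lower; 4.34%). These comparisons share the number 1 libraries. Of the 97 genes called higher in the main comparison, 29 were also called higher against number 2 alone, 82 against number 3 alone and 15 against both. Of the 218 called lower, these counts were 135, 165 and 83. Most of the 315 were thus not called against each other number separately. Against number 2 the count was 192 without shSCR replicate 2 and 151 without shG9a_4 replicate 1. Against number 3 it was 474 with shSCR replicate 1 left out, 231 with shSCR replicate 3 left out, 357 with shG9a_1 replicate 1 left out, 230 with shG9a_1 replicate 3 left out, 407 with shG9a_4 replicate 1 left out, 1622 with shG9a_4 replicate 2 left out and 210 with shG9a_4 replicate 3 left out. Numbers 2 and 3 differed from each other at 1496 genes (8.11%). All 315 genes kept their direction whenever 1 library was left out. They were chosen on these same libraries, so that outcome was largely set in advance. Those still called ran from 136 without shG9a_4 replicate 1 to 307 without shG9a_4 replicate 2. Without number 2 as a whole 310 of the 313 that could be tested kept their direction and 289 their call. Without number 3 as a whole 301 of 315 kept their direction and 80 their call. The shG9a_4 replicate 2 library lay furthest from its hairpin. Its read counts gave a chi-square per degree of freedom of 59.1 against replicate 1 and 78.9 against replicate 3. All other pairs within a hairpin gave 25.2 to 37.9.

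Some genes of retinoid handling and some reported to respond to retinoic acid were lower in number 1. Of 19 tested genes of a list of reported response genes, 9 fell and none rose (DHRS3, STRA6, RARRES1, TGM2, NRIP1, CYP26B1, HOXA3, HOXA2 and HOXA5), with a list median of −0.59 on the log2 scale against 0.00462 over all genes. Of 16 tested genes of retinoid uptake, storage and metabolism, 4 fell (DHRS3, STRA6, CYP26B1 and RBP4) and none rose, and the list median was −0.079. Both lists were written after values were seen, so their counts describe these genes and test nothing. None of the 4 tested receptor genes was called, and RARA, RARG, RXRA and RXRB had log2 fold changes of −0.10, −0.045, 0.094 and −0.10.

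DHRS3 (ENSG00000162496.8), a retinaldehyde reductase that returns retinal to retinol and is itself raised by retinoic acid, differed most. It was at 1.58, 1.38 and 1.45 CPM in number 1, against 30.6, 27.2 and 34.5 CPM in number 2 and 23.8, 25.1 and 24.2 CPM in number 3. All 3 number 1 libraries were far below all 6 others, and they lay close together whatever the hairpin. Means were 1.47 ± 0.102 CPM in number 1, 30.8 ± 3.67 CPM in number 2 and 24.4 ± 0.644 CPM in number 3 (SD, n = 3 each). The log2 fold change was −4.22 (SE 0.11, adjusted p = 3.67e-09), with −4.09 in shG9a_1, −4.23 in shG9a_4 and −4.31 in shSCR. DHRS3 kept this call in every setting tried. Its promoter is shown because it had the lowest log2 fold change of the 315 genes called. The window runs from 250 bases before to 50 bases after the start that lies furthest upstream of 3 in the RefSeq table (GRCh38.p14, chr1:12618161-12618460, minus strand):
DHRS3: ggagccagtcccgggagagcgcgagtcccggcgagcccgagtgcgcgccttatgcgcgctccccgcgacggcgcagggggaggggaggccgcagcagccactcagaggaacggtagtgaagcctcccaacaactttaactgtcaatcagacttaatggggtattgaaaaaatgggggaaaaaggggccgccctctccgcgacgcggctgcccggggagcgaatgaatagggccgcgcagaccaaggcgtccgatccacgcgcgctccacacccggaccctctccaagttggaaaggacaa

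Direct repeats of the RAR half-site, with a spacer of 5 or 2 bases, were searched on both strands of such windows. Neither was in any of the 24 windows of the 8 called retinoid genes that the table holds, and all letters above are therefore in lower case. Over all 35116 windows of the same length, 0.0883% held the repeat with 5 bases between and 0.0399% the one with 2. Sites outside the windows were not searched.

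STRA6 (ENSG00000137868.18), the cell-surface receptor that takes up retinol from its carrier, was at 5.99, 6.33 and 7.30 CPM in number 1, against 37.04, 27.2 and 26.9 CPM in number 2 and 15.5, 19.7 and 13.6 CPM in number 3. Every hairpin had its lowest level in number 1 and its highest in number 2, without overlap between number 1 and the rest. STRA6 differed by −1.75 (SE 0.15, adjusted p = 0.000231) on the log2 scale, and it was −2.21 against number 2 and −1.304 against number 3. RBP4, the retinol carrier that STRA6 binds, was at 1.09, 0.960 and 0.664 CPM in number 1, against 1.45, 1.20 and 1.14 CPM in number 2 and 2.32, 1.78 and 1.68 CPM in number 3, with a difference of −0.79 (SE 0.15, adjusted p = 0.021) on the log2 scale. Number 1 was lowest and number 3 highest. That call was lost in 10 of 23 settings, among them without replicate 1 or 3 of shSCR, replicate 1 or 3 of shG9a_1 or replicate 1 or 3 of shG9a_4 (adjusted p = 0.0641 to 0.119). CYP26B1, which breaks down retinoic acid, was at 7.88, 9.30 and 9.33 CPM in number 1, against 16.96, 12.02 and 11.7 CPM in number 2 and 13.8, 15.1 and 11.9 CPM in number 3. Its number 1 libraries were the 3 lowest of the 9, and numbers 2 and 3 overlapped. CYP26B1 differed by −0.61 (SE 0.13, adjusted p = 0.0386) on the log2 scale and lost its call in 12 of 23 settings, among them without replicate 2 or 3 of shSCR, replicate 1 or 3 of shG9a_1 or replicate 1 or 3 of shG9a_4 (adjusted p = 0.0581 to 0.21).

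Among the reported response genes, RARRES1, a membrane protein first found through retinoid induction in skin, was at 1.26, 1.43 and 1.36 CPM in number 1, against 3.45, 3.70 and 2.86 CPM in number 2 and 2.91, 3.22 and 3.13 CPM in number 3. Number 1 stood at less than any other library, and numbers 2 and 3 overlapped. TGM2, the crosslinking enzyme tissue transglutaminase, was at 27.6, 25.3 and 28.7 CPM in number 1, against 69.2, 49.5 and 64.2 CPM in number 2 and 42.4, 34.7 and 39.1 CPM in number 3. Here the numbers formed 3 steps, with 1 lowest, 3 between and 2 highest. NRIP1, a corepressor of nuclear receptors, showed the same steps, at 84.97, 80.3 and 84.7 CPM in number 1, against 159.9, 178 and 166 CPM in number 2 and 131, 109 and 119 CPM in number 3. Log2 fold changes were −1.25 (SE 0.13, adjusted p = 0.000586) for RARRES1, −0.83 (SE 0.07, adjusted p = 0.000202) for TGM2 and −0.77 (SE 0.06, adjusted p = 0.000231) for NRIP1. RARRES1 and TGM2 kept their calls in every setting tried.

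Within the HOXA cluster, whose 3' end is known to respond to retinoic acid, 3 of 10 tested genes fell. This list too was written after values were seen. Its 3 called genes are already among the 9 response genes, so they add no separate count. HOXA5 was at 15.7, 15.96 and 9.73 CPM in number 1, against 25.3, 28.3 and 14.1 CPM in number 2 and 20.3, 22.4 and 14.7 CPM in number 3. Number 1 was lowest within each hairpin, while over all hairpins the 3 numbers overlapped. The log2 fold changes were −0.59 (adjusted p = 0.00448) for HOXA5, −0.60 (adjusted p = 0.0195) for HOXA3 and −0.59 (adjusted p = 0.0482) for HOXA2. HOXA2 lost its call in 16 of 23 settings, among them without replicate 1 or 3 of shSCR, replicate 1, 2 or 3 of shG9a_1 or replicate 1, 2 or 3 of shG9a_4 (adjusted p = 0.06 to 0.243). HOXA3 lost it in 9, among them without replicate 3 of shSCR, replicate 1 or 3 of shG9a_1 or replicate 1 or 3 of shG9a_4 (adjusted p = 0.0508 to 0.145), and HOXA5 in 2, among them without replicate 1 of shG9a_4 (adjusted p = 0.0506). The count of 9 response genes was 5 without shG9a_4 replicate 1. Others such as HOXA4 (0.19), HOXA9 (−0.076) and HOXA10 (−0.06) were not called, given as log2 fold changes. Response genes such as MEIS2 (−0.0049), FABP5 (0.17) and HOXB4 (0.074) were not called either. Metabolic enzymes RDH10 (−0.0076), which makes retinal, and ALDH1A3 (0.11), which makes retinoic acid, were not called. LRAT, which esterifies retinol for storage, had a log2 fold change of 0.39 (adjusted p = 0.0616).

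**Figure D2:**
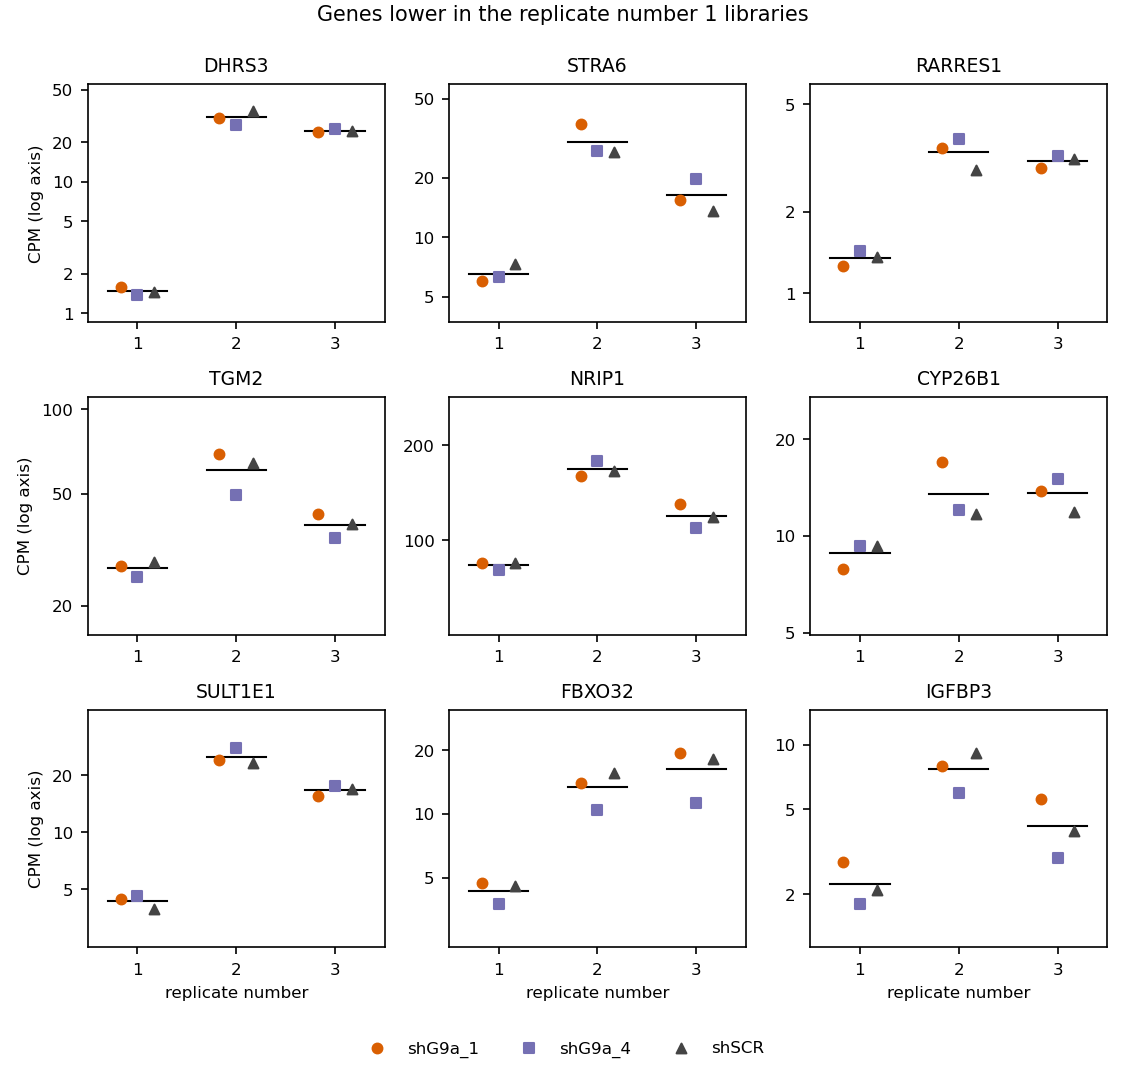
Levels of 9 genes (CPM, log axis) by replicate number, with a symbol for each hairpin and a bar at the mean of the 3 libraries of a number. Number 1 lies below numbers 2 and 3 at all 9 genes, with the widest gap at DHRS3, where the means were 1.47, 30.8 and 24.4 CPM.

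Other large falls were in genes that encode conjugating enzymes, a muscle-type ubiquitin ligase and secreted regulators. SULT1E1, the oestrogen sulfotransferase, was at 4.45, 4.59 and 3.94 CPM in number 1, against 24.1, 27.8 and 23.1 CPM in number 2 and 15.5, 17.5 and 16.8 CPM in number 3. Its number 1 libraries lay together and well below the rest, as at DHRS3. On the log2 scale SULT1E1 differed by −2.24 (SE 0.09, adjusted p = 1.83e-07). SULT1B1, a thyroid hormone sulfotransferase, was at 1.73, 0.974 and 1.297 CPM in number 1, against 6.98, 6.19 and 5.69 CPM in number 2 and 3.19, 2.20 and 2.20 CPM in number 3. The lowest libraries were again those of number 1, but number 3 lay closer to it than number 2. For SULT1B1 the log2 fold change was −1.60 (SE 0.14, adjusted p = 0.000231).

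FBXO32 (atrogin-1), a ubiquitin ligase subunit and textbook target of FOXO factors, was at 4.70, 3.74 and 4.57 CPM in number 1, against 14.1, 10.4 and 15.7 CPM in number 2 and 19.5, 11.3 and 18.2 CPM in number 3. All number 1 libraries were below all others, and the log2 fold change was −1.75 (SE 0.10, adjusted p = 1.22e-05). IGFBP3, a secreted binder of insulin-like growth factors, was at 2.82, 1.80 and 2.08 CPM in number 1, against 7.98, 5.97 and 9.13 CPM in number 2 and 5.61, 2.95 and 3.97 CPM in number 3. Its shG9a_1 library of number 1 came within a small margin of the shG9a_4 library of number 3. For IGFBP3 it was −1.34 (SE 0.14, adjusted p = 0.000586). FAM20C, a Golgi kinase of secreted proteins, had −1.36 (SE 0.14, adjusted p = 0.000648), and RAPGEF3 (EPAC1), a cAMP-regulated exchange factor, had −1.43 (SE 0.13, adjusted p = 0.00043). All of SULT1E1, SULT1B1, FBXO32, IGFBP3, FAM20C and RAPGEF3 kept their calls in every setting.

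Large falls were also called at SAMD11, STEAP4, UCA1 and GRAMD2A. SAMD11 was at 1.40, 0.579 and 0.494 CPM in number 1, against 8.28, 3.21 and 6.72 CPM in number 2 and 2.25, 2.18 and 1.79 CPM in number 3, so number 1 was lowest within each hairpin and number 2 highest. STEAP4, a metalloreductase, was at 0.571, 0.329 and 0.309 CPM in number 1, against 1.37, 1.61 and 0.974 CPM in number 2 and 2.28, 1.34 and 2.16 CPM in number 3. The log2 fold changes were −2.16 (SE 0.27, adjusted p = 0.00172) for SAMD11 and −2.001 (SE 0.26, adjusted p = 0.00218) for STEAP4. The long noncoding RNA UCA1, at −1.93 (SE 0.34, adjusted p = 0.0147), lost its call without replicate 1 of shSCR, replicate 3 of shG9a_1 or replicate 1 or 3 of shG9a_4 (adjusted p = 0.053 to 0.0854). GRAMD2A had −1.35 (SE 0.15, adjusted p = 0.00113).

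Some genes of TGF-beta signalling and of the extracellular matrix were also lower in number 1. Of 20 tested TGF-beta targets and components, 8 fell and none rose (LTBP3, ID2, SMAD6, ID1, TGFB2, TGFBR2, BHLHE40 and SKIL), with a median log2 fold change of −0.40. Over all genes 1.18% fell. Against number 2 alone 9 of the list were called lower and against number 3 alone 3, beside 1.22% and 2.68% of all genes. Of 42 tested mesenchymal and matrix genes, 10 fell and none rose, with a median of −0.17. Against number 2 alone 7 of these 42 were called lower and none higher. Against number 3 alone 10 were called lower and 3 higher, beside 2.68% and 1.66% of all genes. Among components, the ligand TGFB2 had −0.47 (adjusted p = 0.0168) and the type II receptor TGFBR2 −0.45 (adjusted p = 0.000976). TGFB2 lost its call without replicate 1 of shSCR, replicate 3 of shG9a_1 or replicate 1 or 3 of shG9a_4 (adjusted p = 0.0769 to 0.123), BHLHE40 without replicate 2 of shSCR, replicate 1 or 3 of shG9a_1 or replicate 1 or 3 of shG9a_4 (adjusted p = 0.051 to 0.17) and SKIL without replicate 1 of shSCR, replicate 3 of shG9a_1 or replicate 1 of shG9a_4 (adjusted p = 0.0676 to 0.119). TGFBR2 was at 190.5, 179 and 156 CPM in number 1, against 254, 259 and 227 CPM in number 2 and 249.1, 227 and 213 CPM in number 3, so that no number 1 library reached any of the others. LTBP3, which tethers latent TGF-beta in the matrix, was at 10.3, 11.7 and 12.97 CPM in number 1, against 28.9, 20.1 and 27.7 CPM in number 2 and 19.2, 28.7 and 22.3 CPM in number 3. Its number 1 libraries were again the lowest, and the log2 fold change was −1.07 (SE 0.15, adjusted p = 0.00365). SMAD3, the receptor-activated transducer, is outside the list and was named after its values were seen. It was at 25.4, 19.997 and 19.5 CPM in number 1, against 35.5, 30.6 and 35.7 CPM in number 2 and 34.3, 30.8 and 31.3 CPM in number 3. On the log2 scale SMAD3 differed by −0.62 (SE 0.07, adjusted p = 0.00134).

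The BMP- and TGF-beta-responsive genes ID1, ID2 and SMAD6 had their larger differences against number 2. ID1 was at 82.9, 73.6 and 60.2 CPM in number 1, against 154, 112 and 149 CPM in number 2 and 94.7, 89.2 and 80.8 CPM in number 3, so only number 2 was free of overlap with number 1. ID2 was at 8.86, 5.59 and 3.92 CPM in number 1, against 20.8, 17.3 and 19.02 CPM in number 2 and 5.96, 5.24 and 5.18 CPM in number 3, so numbers 1 and 3 overlapped. Against number 2 and number 3 the log2 fold changes were −0.94 and −0.29 for ID1, −1.69 and 0.12 for ID2, and −1.09 and −0.37 for SMAD6. ID2 lost its call without replicate 1 or 3 of shSCR or replicate 1 or 3 of shG9a_4 (adjusted p = 0.0593 to 0.123), and ID1 without replicate 3 of shG9a_4 (adjusted p = 0.0558). The count of 8 was 4 without shG9a_4 replicate 1 or shG9a_4 replicate 3, and 5 when replicate 1 of shSCR or replicate 3 of shG9a_1 was left out.

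Among matrix genes, fibronectin (FN1) was at 323, 204 and 189.6 CPM in number 1, against 674, 547 and 751 CPM in number 2 and 435, 229 and 314 CPM in number 3. Each hairpin was lowest in number 1, although over all hairpins numbers 1 and 3 overlapped. FBN1, the microfibril protein fibrillin, was at 18.2, 12.8 and 12.2 CPM in number 1, against 26.4, 20.9 and 21.6 CPM in number 2 and 39.4, 22.4 and 24.4 CPM in number 3. MMP2, a gelatinase, was at 11.2, 10.1 and 11.8 CPM in number 1, against 22.4, 18.1 and 17.7 CPM in number 2 and 20.7, 16.4 and 16.97 CPM in number 3, with no number 1 library above any other. Log2 fold changes were −0.97 (SE 0.13, adjusted p = 0.00237) for FN1, −0.84 (SE 0.09, adjusted p = 0.00065) for FBN1 and −0.76 (SE 0.08, adjusted p = 0.000976) for MMP2. LOXL2, a collagen crosslinker, had −0.67 (adjusted p = 0.000844), the fibronectin receptor subunit ITGA5 −0.34 (adjusted p = 0.0121), and tenascin C (TNC) −0.49 (adjusted p = 0.0339). ITGA5 lost its call without replicate 1 of shSCR, replicate 1 or 3 of shG9a_1 or replicate 3 of shG9a_4 (adjusted p = 0.0583 to 0.101), and TNC without replicate 1, 2 or 3 of shSCR, replicate 1 or 3 of shG9a_1 or replicate 1 of shG9a_4 (adjusted p = 0.0796 to 0.205). The fibroblast markers did not move as 1 group: FAP fell (−0.61, adjusted p = 0.0213), while DCN, at 413, 299 and 273 CPM in number 1, against 409.9, 407 and 327 CPM in number 2 and 191, 135 and 155 CPM in number 3, was called higher (0.40, adjusted p = 0.0384) with number 3 below all others and numbers 1 and 2 overlapping. The part of any other cell type in these results was not tested. FAP lost its call without replicate 1, 2 or 3 of shSCR, replicate 3 of shG9a_1 or replicate 1 of shG9a_4 (adjusted p = 0.051 to 0.125), and DCN without replicate 1 or 2 of shSCR, replicate 1 or 3 of shG9a_1 or replicate 1 or 3 of shG9a_4 (adjusted p = 0.0668 to 0.248). The count of 10 matrix genes was 6 with replicate 1 of shSCR, or replicate 1 or 3 of shG9a_1, left out.

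Several antioxidant and iron-handling genes known as NRF2 targets were higher in number 1. Of 23 tested, 9 rose and none fell (GCLC, HMOX1, SLC7A11, FTL, AKR1C2, NQO1, PIR, FTH1 and GCLM), with a median log2 fold change of 0.21. GCLC, the catalytic subunit of the rate-limiting ligase of glutathione synthesis, was at 352, 322 and 305 CPM in number 1, against 197, 192 and 192 CPM in number 2 and 232, 223 and 214 CPM in number 3. Every number 1 library was above all 6 others, and number 2 was lowest. The log2 fold change of GCLC was 0.65 (SE 0.05, adjusted p = 7.47e-05), with 0.72 in shG9a_1, 0.64 in shG9a_4 and 0.59 in shSCR, and it held in every setting. GCLM, the partner subunit, had 0.28 (adjusted p = 0.0133) and lost its call without replicate 1 or 3 of shSCR, replicate 1 of shG9a_1 or replicate 1 of shG9a_4 (adjusted p = 0.0709 to 0.109). AKR1C2 lost it without replicate 1, 2 or 3 of shG9a_1 or replicate 1 or 3 of shG9a_4 (adjusted p = 0.0569 to 0.168) and PIR without replicate 1 of shG9a_1 (adjusted p = 0.0651). SLC7A11, the cystine importer, was at 340.3, 256 and 237 CPM in number 1, against 152, 143 and 149 CPM in number 2 and 252, 221 and 210.3 CPM in number 3. Number 1 was highest within each hairpin, number 2 lowest, and over all hairpins numbers 1 and 3 overlapped. On the log2 scale SLC7A11 differed by 0.58 (SE 0.07, adjusted p = 0.00115), with 0.89 against number 2 (adjusted p = 0.000205) and 0.28 against number 3 (0.0812).

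Of the iron and haem genes, FTL, the ferritin light chain, was at 2357, 2171 and 2025 CPM in number 1, against 1492, 1219 and 1513 CPM in number 2 and 1913, 1592 and 1612 CPM in number 3. Number 1 lay above every other library. On the log2 scale FTL differed by 0.50 (SE 0.07, adjusted p = 0.00435), a call lost without replicate 1 of shG9a_4 (adjusted p = 0.0625). FTH1, the heavy chain, had 0.31 (adjusted p = 0.0401) and lost its call without replicate 1, 2 or 3 of shSCR, replicate 1 or 3 of shG9a_1 or replicate 1 of shG9a_4 (adjusted p = 0.104 to 0.33). Both have processed pseudogenes, so their counts of uniquely placed reads are uncertain. HMOX1, haem oxygenase 1, was at 89.3, 45.01 and 27.9 CPM in number 1, against 30.99, 13.9 and 17.8 CPM in number 2 and 78.7, 45.3 and 33.6 CPM in number 3. Numbers 1 and 3 overlapped, and number 2 was lowest in every hairpin. The log2 fold change of HMOX1 was 0.64 (SE 0.13, adjusted p = 0.0339), made of 1.29 against number 2 and −0.017 against number 3, and it lost its call or its direction in 12 of 23 settings, among them without replicate 3 of shSCR, replicate 1, 2 or 3 of shG9a_1 or replicate 1 or 3 of shG9a_4 (adjusted p = 0.0747 to 0.243). HMOX1 was also higher in shG9a_1 than in shSCR, by 1.22 (adjusted p = 0.0107). NQO1, a quinone reductase, was at 1563, 1214 and 1017 CPM in number 1, against 801, 668 and 759.7 CPM in number 2 and 1315, 1045 and 1050.2 CPM in number 3, again with number 2 lowest and numbers 1 and 3 overlapping, and had 0.45 (SE 0.08, adjusted p = 0.0149). NQO1 lost its call without replicate 3 of shSCR, replicate 1 or 3 of shG9a_1 or replicate 1 or 3 of shG9a_4 (adjusted p = 0.0551 to 0.149). Over the list, 8 genes were called higher against number 2 and 3 against number 3, beside 0.396% and 1.66% of all genes. The list median was 0.40 against number 2 and 0.061 against number 3. With number 2 left out whole, 7 of the list were called higher and 2 lower, where 1311 and 1457 of 18164 genes were. The count of 9 was 3 without shG9a_1 replicate 1 or shG9a_4 replicate 1, and 5 without shSCR replicate 3 or shG9a_1 replicate 3.

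Genes of the AHR pathway were also higher. In a list of 9 tested genes, written after values were seen, 5 rose (CYP1B1, TIPARP, AHRR, CYP1A1 and NQO1) and none fell, with a median of 0.49. NQO1 is already counted among the NRF2 targets. Against number 2 alone 5 were called higher and against number 3 alone 3, beside 0.396% and 1.66% of all genes. The list medians there were 0.48 and 0.145. CYP1B1, an oestrogen- and hydrocarbon-oxidising P450, was at 1147, 1009.8 and 1099 CPM in number 1, against 810.0, 811 and 724 CPM in number 2 and 739, 659 and 657 CPM in number 3. TIPARP, which feeds back on the receptor, was at 282, 252 and 226 CPM in number 1, against 173, 161 and 190.1 CPM in number 2 and 188, 166 and 174 CPM in number 3. At both genes number 1 lay above all 6 other libraries, and numbers 2 and 3 overlapped. CYP1A1, the classical target, was at 46.9, 31.9 and 33.98 CPM in number 1, against 21.5, 17.2 and 23.1 CPM in number 2 and 37.3, 31.3 and 34.2 CPM in number 3, where number 2 was low and number 3 overlapped with number 1. Log2 fold changes were 0.57 (SE 0.06, adjusted p = 0.000588) for CYP1B1, 0.53 (SE 0.07, adjusted p = 0.00207) for TIPARP, 0.49 (SE 0.08, adjusted p = 0.013) for CYP1A1 and 0.51 (SE 0.10, adjusted p = 0.0278) for AHRR, the receptor's repressor. AHR itself (0.098) and its partner ARNT (−0.00089) were not called. AHRR lost its call without replicate 1, 2 or 3 of shSCR, replicate 3 of shG9a_1 or replicate 1 or 3 of shG9a_4 (adjusted p = 0.0635 to 0.226), and CYP1A1 without replicate 1 or 3 of shG9a_1 or replicate 1 of shG9a_4 (adjusted p = 0.0675 to 0.0942). The count of 5 was 2 without shG9a_1 replicate 3 or shG9a_4 replicate 1, and 3 without shSCR replicate 3, shG9a_1 replicate 1 or shG9a_4 replicate 3.

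Promoter windows of the called genes that hold the core letters of these factors' sites are shown so that the letters can be read in place. The antioxidant response element was searched as TGACNNNGC and the AHR site as TNGCGTG, on both strands of RefSeq windows of 300 bases (GRCh38.p14). Of the 9 called NRF2 genes the table holds 6, with 6 windows. The first motif was in 2 of these windows, at GCLM and PIR, and in 13.3% of all windows. Of the 5 called AHR genes it holds 4, with 7 windows. The second was in 2 of these, at AHRR and NQO1, and in 5.51% of all windows. A match is a run of letters, not a site shown to be bound. Capitals mark the match, which is on the strand opposite to the gene at GCLM, PIR and NQO1. The windows are chr1:93909381-93909680, minus strand for GCLM, chrX:15493284-15493583, minus strand for PIR, chr5:321464-321763, plus strand for AHRR and chr16:69726511-69726810, minus strand for NQO1:
GCLM: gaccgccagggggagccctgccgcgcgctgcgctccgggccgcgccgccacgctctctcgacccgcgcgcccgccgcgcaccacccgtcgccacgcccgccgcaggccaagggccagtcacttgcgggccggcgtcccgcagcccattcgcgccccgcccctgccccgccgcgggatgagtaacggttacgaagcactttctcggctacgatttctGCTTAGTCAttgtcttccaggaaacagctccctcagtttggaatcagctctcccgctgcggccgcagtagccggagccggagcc
PIR: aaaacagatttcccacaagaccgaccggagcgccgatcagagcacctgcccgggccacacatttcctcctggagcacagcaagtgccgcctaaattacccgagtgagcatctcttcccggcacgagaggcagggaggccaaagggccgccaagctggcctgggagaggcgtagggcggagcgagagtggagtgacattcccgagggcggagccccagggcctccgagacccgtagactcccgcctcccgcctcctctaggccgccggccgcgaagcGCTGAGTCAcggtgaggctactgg
AHRR: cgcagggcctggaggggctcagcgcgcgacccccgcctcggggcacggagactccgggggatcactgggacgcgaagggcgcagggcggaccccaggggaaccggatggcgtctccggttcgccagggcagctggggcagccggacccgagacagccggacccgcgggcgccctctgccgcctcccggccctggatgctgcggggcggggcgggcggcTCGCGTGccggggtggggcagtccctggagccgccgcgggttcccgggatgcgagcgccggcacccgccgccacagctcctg
NQO1: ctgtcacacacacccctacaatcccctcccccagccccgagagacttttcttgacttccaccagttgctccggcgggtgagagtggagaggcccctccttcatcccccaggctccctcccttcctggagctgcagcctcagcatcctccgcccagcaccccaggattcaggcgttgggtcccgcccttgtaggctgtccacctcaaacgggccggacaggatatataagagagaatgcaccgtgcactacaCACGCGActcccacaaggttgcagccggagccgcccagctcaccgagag

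Outside these lists, VIPR1, a receptor for vasoactive intestinal peptide that couples to cAMP, was at 40.2, 46.1 and 41.5 CPM in number 1, against 23.2, 23.9 and 18.97 CPM in number 2 and 24.6, 32.4 and 23.7 CPM in number 3. It was higher in number 1 than in any other library, by 0.81 (SE 0.07, adjusted p = 0.000275) on the log2 scale, and held in every setting. EGR1, an immediate early transcription factor, was at 9.51, 8.88 and 13.001 CPM in number 1, against 5.12, 3.89 and 8.11 CPM in number 2 and 4.70, 6.10 and 6.80 CPM in number 3. Number 1 was above all others here as well, and the log2 fold change was 0.86 (SE 0.13, adjusted p = 0.00501). SLC2A3, the glucose transporter GLUT3, rose by 1.36 (SE 0.26, adjusted p = 0.0232) on the log2 scale. It was at 2.66, 3.16 and 7.83 CPM in number 1, against 2.55, 2.87 and 2.13 CPM in number 2 and 0.984, 1.21 and 1.06 CPM in number 3, so the shSCR library of number 1 stood far above the other 8. SLC2A3 lost its call without replicate 3 of shSCR, replicate 3 of shG9a_1 or replicate 3 of shG9a_4 (adjusted p = 0.0655 to 0.0971).

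Further higher genes were named because number 1 exceeded both other libraries in every hairpin. Called genes that rose more without meeting this, such as HLA-DRA and IL1R2, are described further on. The log2 fold change of TRIM15 was 1.12 (adjusted p = 0.0128), CLEC2B 0.95 (adjusted p = 0.00172), METTL7B 0.85 (adjusted p = 0.00956), LPAL2 0.70 (adjusted p = 0.0245), VSTM2L 0.67 (adjusted p = 0.0498), ITGA10 0.64 (adjusted p = 0.0132), PRR16 0.62 (adjusted p = 0.0251) and the noncoding RNA LINC01127 0.64 (adjusted p = 0.00511). All of these lost their call in at least 1 setting, and VSTM2L in 14 of 23, among them without replicate 1, 2 or 3 of shSCR, replicate 3 of shG9a_1 or replicate 1 or 3 of shG9a_4 (adjusted p = 0.114 to 0.357). Single libraries also ended the calls of TRIM15 without replicate 1 of shSCR, replicate 3 of shG9a_1 or replicate 1 or 3 of shG9a_4 (adjusted p = 0.0527 to 0.09), METTL7B without replicate 1 or 3 of shG9a_4 (adjusted p = 0.0546 to 0.102), LPAL2 without replicate 1, 2 or 3 of shSCR, replicate 1 or 3 of shG9a_1 or replicate 1 or 3 of shG9a_4 (adjusted p = 0.0504 to 0.177), ITGA10 without replicate 1 of shSCR or replicate 3 of shG9a_1 (adjusted p = 0.0575 to 0.0919), PRR16 without replicate 1, 2 or 3 of shSCR or replicate 1 or 3 of shG9a_4 (adjusted p = 0.0702 to 0.184) and LINC01127 without replicate 1 of shG9a_4 (adjusted p = 0.0576). In CLEC2B, an activation-induced lectin, number 1 was at 4.50, 4.54 and 4.80 CPM, number 2 at 2.94, 3.86 and 3.33 CPM and number 3 at 1.89, 1.70 and 1.51 CPM. The 3 numbers thus formed steps without overlap, with number 3 lowest.

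**Figure D3:**
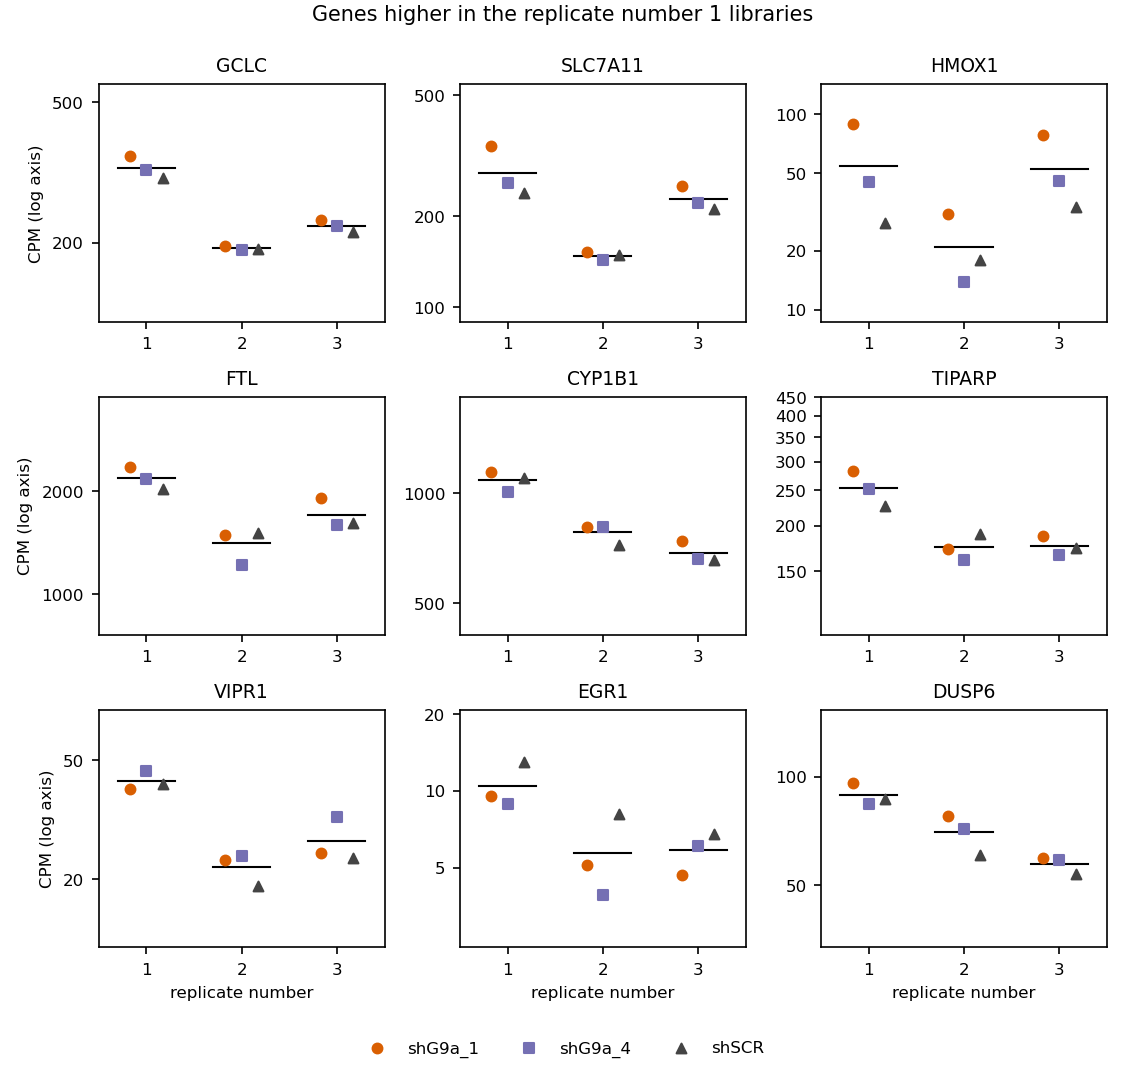
Levels of 9 genes (CPM, log axis) by replicate number, with a symbol for each hairpin and a bar at the mean of a number. Number 1 lies above both other numbers within every hairpin at GCLC, SLC7A11, FTL, CYP1B1, TIPARP, VIPR1, EGR1 and DUSP6, whereas HMOX1 had means of 54.1 CPM in number 1 and 52.5 CPM in number 3, and the libraries of these numbers overlap.

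Of 22 feedback genes of EGF and MAP kinase signalling, 3 rose (DUSP6, ETV4 and DUSP4) and none fell, with a median of 0.18. DUSP6, the phosphatase that switches off ERK, was at 95.8, 84.2 and 86.6 CPM in number 1, against 77.7, 71.7 and 60.5 CPM in number 2 and 59.6, 58.5 and 53.7 CPM in number 3. Number 1 was above all others and number 3 lowest, by 0.49 (SE 0.06, adjusted p = 0.00113) on the log2 scale. ETV4, at 0.42 (adjusted p = 0.047), and DUSP4, at 0.25 (adjusted p = 0.0235), lost their calls in 13 and 11 of 23 settings. ETV4 lost it without replicate 1, 2 or 3 of shSCR, replicate 3 of shG9a_1 or replicate 1 or 3 of shG9a_4 (adjusted p = 0.124 to 0.329), and DUSP4 without replicate 1, 2 or 3 of shSCR, replicate 1 or 3 of shG9a_1 or replicate 1 or 3 of shG9a_4 (adjusted p = 0.0735 to 0.172). The count of 3 was 5 without shG9a_4 replicate 2, and 1 without shSCR replicate 3, shG9a_1 replicate 3, shG9a_4 replicate 1 or shG9a_4 replicate 3. With number 3 left out whole the list held 0 calls, where 99 genes were called in all. With number 2 left out whole 12 of the list were called higher and 2 lower, where 2768 genes were called in all. Amino acid response genes rose at 2 of 28, namely SLC7A11 and STC2, a secreted glycoprotein. STC2 had 0.46 (SE 0.06, adjusted p = 0.00307) and kept its call in every setting. Of 30 p53 targets, DDB2 (0.32, adjusted p = 0.0128) and SESN1 (0.31, adjusted p = 0.0195) rose, but DDB2 lost its call without replicate 1 of shSCR, replicate 1 or 3 of shG9a_1 or replicate 1 or 3 of shG9a_4 (adjusted p = 0.0523 to 0.134), and SESN1 without replicate 1 or 3 of shSCR, replicate 1 or 3 of shG9a_1 or replicate 1 or 3 of shG9a_4 (adjusted p = 0.0565 to 0.161).

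The medium held the glucocorticoid hydrocortisone, and glucocorticoid targets moved both ways: 2 of 22 rose and 3 fell. PDK4, a brake on pyruvate oxidation, was at 38.9, 29.2 and 24.9 CPM in number 1, against 26.7, 20.98 and 17.1 CPM in number 2 and 23.2, 17.3 and 17.2 CPM in number 3. The number 1 library was the highest of each hairpin. TFCP2L1, an epithelial transcription factor, was at 139, 142 and 117 CPM in number 1, against 173, 192 and 137 CPM in number 2 and 199, 206 and 169 CPM in number 3, where number 1 was the lowest of each hairpin. Log2 fold changes were 0.60 (SE 0.07, adjusted p = 0.000976) for PDK4, 0.37 (adjusted p = 0.00898) for ALOX15B, −0.43 (SE 0.05, adjusted p = 0.0013) for TFCP2L1, −0.42 (adjusted p = 0.0133) for SGK1 and −1.29 (adjusted p = 0.00113) for CRISPLD2. SGK1 lost its call without replicate 1 or 3 of shSCR, replicate 3 of shG9a_1 or replicate 1 of shG9a_4 (adjusted p = 0.058 to 0.107), and ALOX15B without replicate 1 of shSCR or replicate 1 of shG9a_4 (adjusted p = 0.0573 to 0.0689).

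Of 33 inflammatory NF-kB targets, TNFAIP2 and complement C3 fell and PTGS2 (COX-2) rose. C3 lost its call without replicate 1 or 3 of shSCR or replicate 1 of shG9a_4 (adjusted p = 0.0674 to 0.119). Against number 2 alone 13 of the NF-kB targets were called lower, and against number 3 alone 5 were called higher, beside 1.22% and 1.66% of all genes. TNFAIP2 was at 121, 126 and 122 CPM in number 1, against 239.7, 181 and 188 CPM in number 2 and 184, 171 and 169.6 CPM in number 3, with number 1 below every other library, at −0.61 (SE 0.07, adjusted p = 0.00113) on the log2 scale. PTGS2 was at 32.4, 24.3 and 56.1 CPM in number 1, against 26.02, 26.6 and 41.1 CPM in number 2 and 11.1, 8.83 and 13.95 CPM in number 3. There number 3 was lowest and numbers 1 and 2 overlapped, for 0.95 (SE 0.10, adjusted p = 0.000586) on the log2 scale. Serum response and contractile genes included 2 falls in 29: tropomyosin TPM1, at −0.46 (SE 0.05, adjusted p = 0.000976), and TAGLN (−1.04, adjusted p = 0.00755), and TAGLN lost its call without replicate 1 of shSCR (adjusted p = 0.0553).

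No call was made in several lists of growth and housekeeping genes, beside 1.71% of all genes called, so that counts of 0 in lists of this size lie near the background. These were 50 DNA replication genes (median 0.0078), 50 G2/M genes (−0.026), 41 histone genes (−0.071), 41 ribosome biogenesis genes (0.055), 59 ribosomal protein genes (0.049) and 46 nuclear genes of oxidative phosphorylation (0.056). The same held for 13 mitochondrially encoded genes (−0.19), 24 genes of the unfolded protein response and 20 chaperones. The mitochondrially encoded genes ran from −0.51 to −0.034, and against number 3 alone 3 of them and 2 of the G2/M genes were called lower, beside 2.68% of all genes. MKI67, a proliferation marker, was at 243, 243 and 268 CPM in number 1, against 265, 313 and 275 CPM in number 2 and 310.2, 327 and 305 CPM in number 3, with a log2 fold change of −0.25 (adjusted p = 0.0767). MKI67 was called lower in 5 of 23 settings, the chaperone DNAJB1 in 9 and the mitochondrially encoded MT-ND6 in 6. In all, 16 of the 38 lists other than those written after values were seen, with 425 tested members, held no call. The 25 genes of G9a and the H3K9 machinery gave none either, and ectopic MYC with the endogenous gene was at 172, 186 and 186 CPM in number 1, against 175, 144 and 169 CPM in number 2 and 199, 218 and 204 CPM in number 3, with a log2 fold change of −0.018. PIK3CA, counted with any ectopic copy, was at 188, 175 and 125 CPM in number 1, against 221, 230.0 and 165 CPM in number 2 and 196, 194 and 144 CPM in number 3. Number 1 was lowest within each hairpin, for −0.24 (SE 0.05, adjusted p = 0.0353) on the log2 scale, and that call was lost in 12 of 23 settings, among them without replicate 1, 2 or 3 of shSCR, replicate 1 or 3 of shG9a_1 or replicate 1 or 3 of shG9a_4 (adjusted p = 0.0602 to 0.26).

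**Figure D4:**
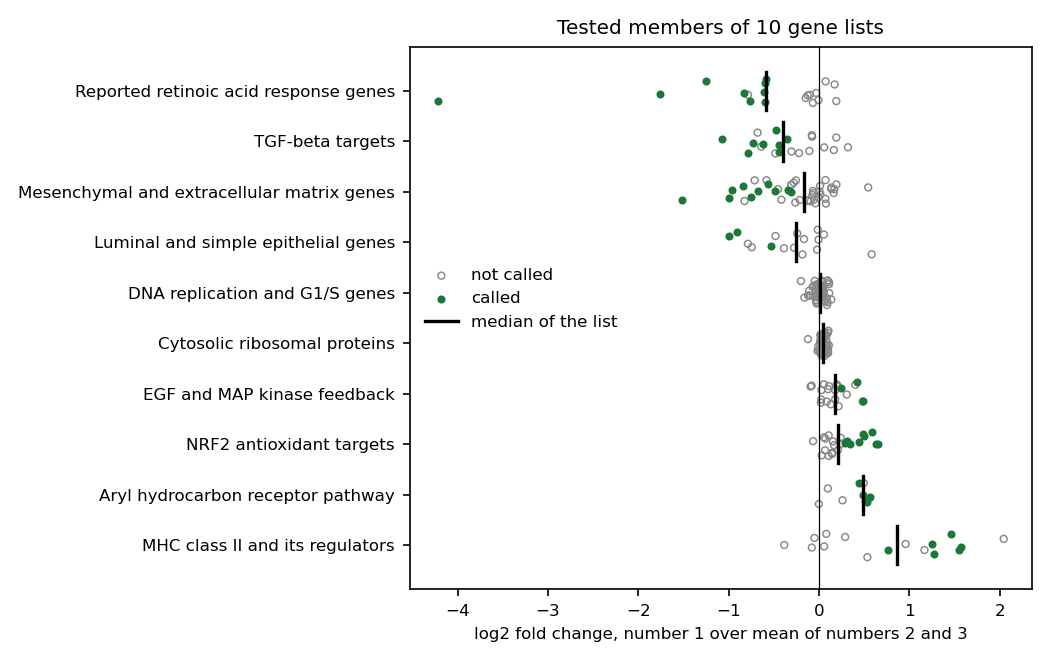
Each circle is a tested member of 1 of 10 gene lists, placed by its log2 fold change in number 1 over the mean of numbers 2 and 3, and filled where it was called. The medians (bars) run from −0.59 for reported retinoic acid response genes to 0.86 for MHC class II, while DNA replication and ribosomal protein genes lie close to 0 without a call.

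At a further set of called genes number 3 lay apart and numbers 1 and 2 overlapped. Of 16 tested MHC class II genes and regulators, in a list written after values were seen, 6 were called higher (HLA-DRB1, HLA-DPB1, HLA-DRA, CD74, HLA-DPA1 and CIITA), with a median of 0.86. HLA-DRA, the alpha chain of HLA-DR, was at 14.8, 6.99 and 10.2 CPM in number 1, against 19.1, 15.9 and 9.45 CPM in number 2 and 1.45, 0.788 and 0.782 CPM in number 3. Numbers 1 and 2 overlapped, and all 3 libraries of number 3 were below both. CD74, the chaperone chain of class II, was at 9.04, 4.12 and 7.504 CPM in number 1, against 12.6, 8.66 and 4.92 CPM in number 2 and 1.23, 0.861 and 0.745 CPM in number 3, and CIITA at 18.7, 13.1 and 15.3 CPM in number 1, against 22.4, 16.4 and 11.4 CPM in number 2 and 5.51, 5.22 and 4.82 CPM in number 3, with the same arrangement. CD74 lost its call without replicate 3 of shG9a_1 or replicate 3 of shG9a_4 (adjusted p = 0.0527 to 0.0575), CIITA without replicate 1 of shSCR (adjusted p = 0.0792) and HLA-DPB1 without replicate 1 or 3 of shSCR, replicate 1 or 3 of shG9a_1 or replicate 3 of shG9a_4 (adjusted p = 0.06 to 0.13). Log2 fold changes against number 2 and number 3 were −0.48 and 3.41 for HLA-DRA, −0.31 and 2.87 for CD74, and −0.064 and 1.59 for CIITA. Against number 2 alone no gene of the list was called higher and 1 was called lower, and against number 3 alone 11 were called higher. Over all genes these shares were 0.396%, 1.22% and 1.66%. Without number 3 as a whole the list held no call, and the log2 fold change of HLA-DRA was −0.48. HLA genes are polymorphic and alike, so their unique reads are uncertain, and HLA-DRB6, a pseudogene at 0.277, 0.171 and 0.124 CPM in number 1 and 0.177, 0.0792 and 0.0909 CPM in number 2, had no read in number 3.

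IL-1 family receptors were arranged likewise, where 2 of 6 rose in a list written after values were seen. IL1R2, the decoy receptor for IL-1, was at 223, 184 and 235 CPM in number 1, against 215, 207 and 94.5 CPM in number 2 and 47.04, 48.2 and 37.2 CPM in number 3, and IL1RL1 at 2.95, 2.74 and 4.85 CPM in number 1, against 3.01, 3.28 and 3.16 CPM in number 2 and 0.613, 0.934 and 0.820 CPM in number 3. Number 3 was below every other library at both genes, and numbers 1 and 2 overlapped. The log2 fold change of IL1R2 was 1.35 against both numbers, 0.39 against number 2 (adjusted p = 0.565) and 2.31 against number 3 (0.000201).

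Of 16 tested luminal and simple epithelial genes, CDH1, CLDN7 and OCLN fell and none rose, with a median log2 fold change of −0.26. At each of the 3, every number 3 library was above all the others. CLDN7 and OCLN encode tight junction proteins. CDH1 (E-cadherin) was at 16.1, 22.9 and 18.5 CPM in number 1, against 14.7, 23.04 and 13.1 CPM in number 2 and 41.95, 47.99 and 45.2 CPM in number 3, and its number 1 and number 2 libraries overlapped. Log2 fold changes were −0.53 (adjusted p = 0.0245) for CDH1, −0.9998 (adjusted p = 0.021) for CLDN7 and −0.91 (adjusted p = 0.0378) for OCLN, with 0.20 and −1.25 against numbers 2 and 3 for CDH1. The count of 3 was 0 without shSCR replicate 3 or shG9a_1 replicate 1, 1 without shSCR replicate 1, shG9a_1 replicate 3, shG9a_4 replicate 1 or shG9a_4 replicate 3, and 5 without shG9a_4 replicate 2. CDH1 itself lost its call without replicate 1 or 3 of shSCR, replicate 1 or 3 of shG9a_1 or replicate 1 of shG9a_4 (adjusted p = 0.0693 to 0.155), CLDN7 without replicate 1 or 3 of shSCR, replicate 1 of shG9a_1 or replicate 1 or 3 of shG9a_4 (adjusted p = 0.0547 to 0.159) and OCLN without replicate 3 of shSCR, replicate 1, 2 or 3 of shG9a_1 or replicate 1, 2 or 3 of shG9a_4 (adjusted p = 0.0529 to 0.216). The basal cadherin CDH3 (−0.39, adjusted p = 0.0112) showed the same arrangement, at 52.9, 65.1 and 46.2 CPM in number 1, 51.6, 62.8 and 46.7 CPM in number 2 and 89.8, 100.2 and 92.3 CPM in number 3. It lost its call without replicate 1 of shSCR (adjusted p = 0.0958). Without number 3 as a whole, the log2 fold changes were 0.21 for CDH1 and 0.03 for CDH3. Among cholesterol synthesis genes, 1 of 23 was called in the main comparison and 13 were called lower against number 3 alone, beside 2.68% of all genes.

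**Figure D5:**
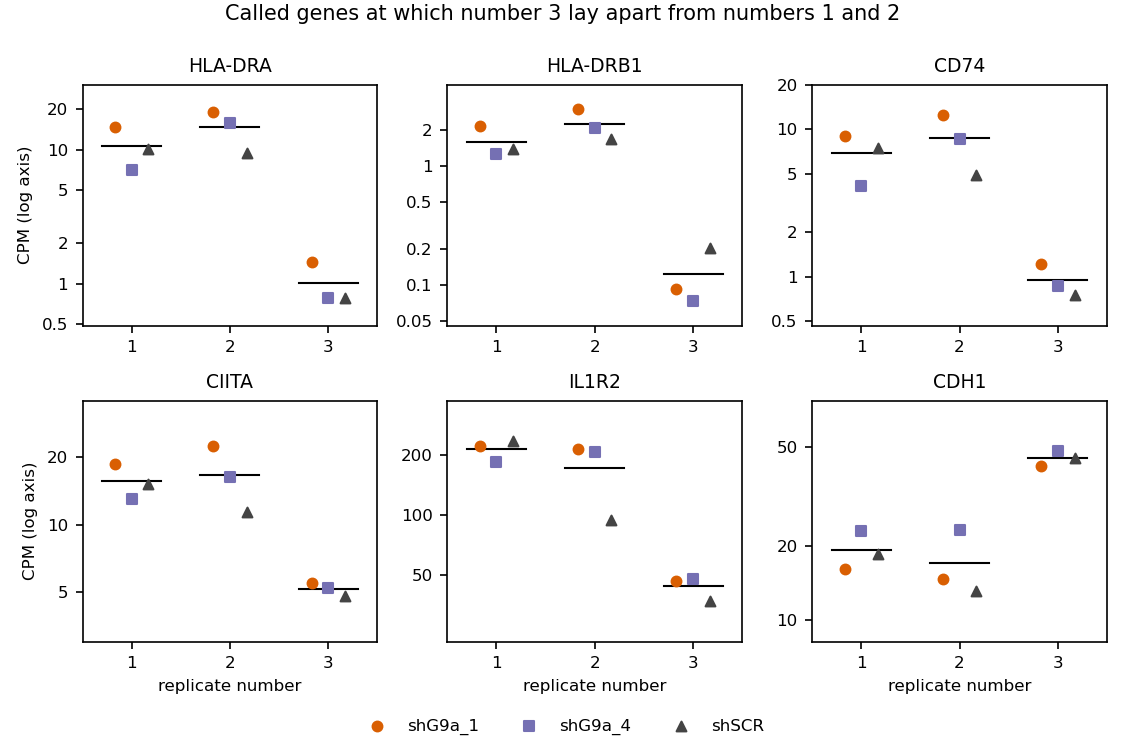
Levels of 6 called genes (CPM, log axis) by replicate number, with a symbol for each hairpin and a bar at the mean of a number. At all 6 the libraries of numbers 1 and 2 overlap and number 3 lies apart, below them at HLA-DRA, HLA-DRB1, CD74, CIITA and IL1R2 and above them at CDH1.

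Whether the difference of number 1 depended on the knockdown was tested with an interaction term over all genes. No gene passed in edgeR's quasi-likelihood test, and 858 of 18435 had an unadjusted p under 0.05. DESeq2 called 30 genes, and edgeR called 111 without shG9a_4 replicate 2, so the count of 0 depended on this library. By hairpin, the number 1 difference was −1.997 in shG9a_1, −1.87 in shG9a_4 and −1.39 in shSCR at STRA6, −2.12 in shG9a_1, −2.26 in shG9a_4 and −2.32 in shSCR at SULT1E1, and −1.81 in shG9a_1, −1.54 in shG9a_4 and −1.88 in shSCR at FBXO32. In the same fit 143 genes (0.776%) differed between shG9a_1 and shSCR and 14 (0.0759%) between shG9a_4 and shSCR, against 315 for number 1. The hairpin contrasts set 3 libraries against 3, while that of number 1 set 3 against 6, so these counts differ in precision. With 3 against 3, number 1 gave 298 against number 2 and 800 against number 3.

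Library make-up was compared in the same way. Of 8 shares of reads compared by an exact permutation test within hairpins, two-sided over 27 assignments with a smallest possible p of 0.037, none passed, and the smallest p was 0.222 (adjusted p = 0.593). That was the share of read pairs in no gene, at 12.75 ± 0.51% in number 1, 13.55 ± 0.24% in number 2 and 13.96 ± 1.47% in number 3 (SD, n = 3 each). Unmapped read pairs made up 2.93 ± 0.151% in number 1, 2.99 ± 0.23% in number 2 and 4.10 ± 0.38% in number 3 (SD, n = 3 each), and mitochondrial genes 0.615 ± 0.0426% of reads in genes in number 1, 0.608 ± 0.0622% in number 2 and 0.739 ± 0.15% in number 3. Number 3, which also set the MHC class II and cadherin genes apart, thus had the most unmapped reads in every hairpin. The contrast can be small where number 1 lies between the others. Small nucleolar RNA genes, not among the 8 shares, made up 0.133, 0.163 and 0.173% of reads in genes in number 1. They made up 0.0979, 0.107 and 0.107% in number 2 and 0.232, 0.346 and 0.256% in number 3. Number 3 also had the fewest reads in genes, at 5.45e+07, 5.36e+07 and 5.31e+07, against 6.25e+07 or more in every other library. The part of these differences in those results was not tested. Of the other cell type markers, CD14 of monocytes was the 1 tested gene of 11 in the immune list. It was at 1.91, 3.03 and 2.89 CPM in number 1, against 6.24, 4.72 and 4.26 CPM in number 2 and 3.86, 4.47 and 4.15 CPM in number 3, below all others in number 1, at −0.82 (SE 0.17, adjusted p = 0.0371) on the log2 scale. CD14 lost its call without replicate 1 or 3 of shSCR, replicate 1 or 3 of shG9a_1 or replicate 1 or 3 of shG9a_4 (adjusted p = 0.0619 to 0.184).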

How the data were processed

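Gene expression was measured by RNA sequencing of 9 cultures, with 3 hairpins and replicate numbers 1 to 3. The authors deposited raw read counts per gene, and reverse-strand counts (column 4) were used. Per the submitters' processing notes, the builds GRCh37 and hg19 and the tools DESeq, R 3.3.1, edgeR 3.14.0 and STAR 2.5.2a were involved, with no role given. Genes were filtered with edgeR's filterByExpr, scaled by TMM and fitted by edgeR's quasi-likelihood test (edgeR 4.0.16, R 4.3.3) with hairpin and replicate number as factors. Number 1 was set against the equally weighted mean of numbers 2 and 3, and p-values were adjusted by Benjamini-Hochberg over all 18435 genes tested. The fit left 4 residual degrees of freedom, and p-values measure the spread between these cultures only.

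The members and gene lists were chosen with earlier results of these data known, and 7 of 45 lists were written after values were seen. The named genes were, in each direction, the 12 largest changes among called genes with a symbol, a mean of at least 1 CPM and number 1 on the same side of both other libraries in all 3 hairpins, and up to 4 called genes per list, or with none called the 1 with the smallest p. EHMT2, MYC and PIK3CA were always given. Further list members, SMAD3 and the genes of the last observations were named after their values were seen. A few genes are not reported here.

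Same-numbered libraries of different hairpins deviated together, with correlations of 0.167 to 0.75 over the 9 pairs, against −0.59 to 0.349 over the 18 pairs of unlike numbers. The shG9a_1 library of number 1 correlated most with the shG9a_4 library of number 2 (0.349) and at 0.292 and 0.284 with those of its own number. Every same-number pair was over 0.1, but the shG9a_1 library of number 1 also reached 0.151 with the shSCR library of number 2. Deviations from a hairpin mean cancel within the hairpin, so unlike pairs fall where same-number pairs rise. The number was kept as a factor, and for the shG9a_1 library of number 1 the correlations do not show the pairing. The script was tested on simulated data. Alternatives were RLE and upper-quartile scaling, DESeq2 1.42.0, edgeR's likelihood ratio test, limma 3.58.1 voom, other filters, unstranded counts, thinning to 53065611 reads, no block, and left-out libraries. Leaving out a whole number or a whole hairpin was chosen after seeing the data. Shares of reads were compared with exact permutations within hairpins. Reads in genes numbered 53065611 to 76958831 per library, and the SE of the number 1 contrast had a median of 0.10. Promoters are from RefSeq (GRCh38.p14), a build other than the one named for the counts.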

Additional observations from a re-analysis of the deposited data

How the results depend on the processing

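The 315 calls were 306 with RLE scaling, 296 with upper-quartile scaling, 428 with DESeq2, 308 with limma voom, 264 with at least 1 CPM in 3 libraries, 314 with unstranded counts and 291 after thinning. They were 580 with the likelihood ratio test, 757 with no filter, 147 with no hairpin block, 2768 with number 2 left out whole, 99 with number 3 left out whole, 192 without hairpin shG9a_1 and 172 without hairpin shG9a_4. Leaving out 1 library gave 145 to 572. Number 1 against 2 gave 602 with the likelihood ratio test, 841 with no filter and 150 with no hairpin block, and 151 to 420 without 1 library. Number 1 against 3 gave 1307, 1605 and 509 in the same settings and 210 to 1622 without 1 library. The interaction, with 0 calls, gave 30 with DESeq2, 126 with no filter and 0 to 111 without 1 library, and could not be fitted without shSCR replicate 1. The causes were not tested.

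With no replicate block, that is without the pairing by number, EHMT2 was at −1.21 (adjusted p = 0.00766) for shG9a_1 and −0.61 (adjusted p = 0.259) for shG9a_4 over shSCR. With the block, shG9a_4 passed the threshold by the likelihood ratio test (−0.61), with no filter (−0.62) and by DESeq2 (−0.62), and ranged from −0.69 to −0.51 without 1 library.

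Of 107 called genes followed over the settings, 28 kept their call in all 23 settings, and 13 turned in direction in at least 1. With number 2 left out whole these were HMOX1 (−0.023) and ID2 (0.11). With number 3 left out whole they were CDH3 (0.025), CDH1 (0.21), S100A8 (−0.21), DCN (−0.23), SERPINA1 (−0.048), HLA-DRB1 (−0.49), HLA-DPB1 (−0.32), HLA-DRA (−0.48), HLA-DPA1 (−0.34), CD74 (−0.32) and CIITA (−0.057). Of genes not called, SLC30A1 turned to 0.098 with number 2 left out whole, and MLXIP to 0.0033 and CBX5 to 0.010 with number 3 left out whole. In number 1 against 2 and 3, EHMT2, not called, turned to 0.017 with limma voom, 0.0049 with no filter, 0.0059 after thinning, 0.049 with no hairpin block, 0.024 with number 3 left out whole, 0.13 without hairpin shG9a_1, and ranged from −0.10 to 0.13 without 1 library (turning at 0.13, 0.066 and 0.029). MYC, not called, turned to 0.16 with number 3 left out whole, 0.031 without hairpin shG9a_1 and 0.035, 0.034 and 0.023 without 1 library, over a range from −0.071 to 0.035. Over all 23 settings MYC reached −0.19 at the lowest, and it was called lower in 1 of them. Among shares of reads, mitochondrial genes turned to 0.0119 and the 100 most abundant genes to −0.0085 percentage points without hairpin shG9a_4, and histone genes to 0.0060 and multimapped read pairs to 0.082 without hairpin shG9a_1. With all read pairs as the denominator the 100 most abundant genes differed by 0.531 points (p = 0.037, the smallest the exact test can give). Depth was 53065611 reads or more per library, and the smallest detectable change was not computed.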

Other observations

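Genes outside the lists, named after their values were seen, added secreted and lineage regulators. DKK1, a secreted inhibitor of WNT signalling, was at 35.1, 23.6 and 14.8 CPM in number 1, against 81.3, 56.7 and 81.4 CPM in number 2 and 57.00, 37.3 and 38.3 CPM in number 3. Number 1 was lowest of each hairpin, and DKK1 differed by −1.25 (SE 0.17, adjusted p = 0.00264). SOX9, a transcription factor of progenitor cells, was at 0.490, 0.447 and 0.679 CPM in number 1, against 1.11, 1.09 and 1.000 CPM in number 2 and 1.15, 1.34 and 0.969 CPM in number 3, and differed by −1.04 (SE 0.20, adjusted p = 0.0238). TRIM31, a ubiquitin ligase, was at 0.0816, 0.0658 and 0.124 CPM in number 1, against 1.98, 1.55 and 1.07 CPM in number 2 and 0.278, 0.238 and 0.242 CPM in number 3, and differed by −2.76 (SE 0.32, adjusted p = 0.00116). SOX9 lost its call without replicate 1 or 3 of shG9a_1 or replicate 1 or 3 of shG9a_4 (adjusted p = 0.0759 to 0.196). All 3 values are log2 fold changes in number 1 over the mean of numbers 2 and 3. DKK1 and TRIM31 kept their calls in every setting tried. TRIM31 was near the floor in number 1, however, and its widest gap was to number 2. Over the settings its log2 fold change ran from −4.04 to −1.18.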
